A study of Homo sapiens with 18 samples.

Results

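CHL1 is an established human melanoma cell line that is wild type for BRAF and NRAS and mutant for p53. The comparison described here sets CHL1 cells after 72 hours of palbociclib against CHL1 cells after 72 hours of the DMSO vehicle, as the early response of this line to inhibition of CDK4 and CDK6 (CDK4/6i). Its members were the 2 CDK4/6i libraries and the 2 control libraries that the labels name, 4 of the 18 libraries of the series. The treated cells had 1 µM palbociclib and the control cells had the vehicle alone, with no other agent in either group. The series also holds CHL1 cells under the PRMT5 inhibitor GSK3326595 (500 nM, 72 hours) and after 6 days of palbociclib, and A375 cells, a melanoma line with mutant BRAF and wild-type p53, under the same treatments. All CHL1 treatments share the 72-hour control. Each group is 1 cell line with 2 replicates, which the methods describe as grown without saying whether they were cultured or treated independently, so p-values measure the spread between these libraries, which may be technical.

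CDK4 and CDK6 bind D-type cyclins and phosphorylate the retinoblastoma protein and its relatives p107 and p130. The phosphorylated proteins release the E2F transcription factors, which switch on genes for DNA replication. In resting cells the pocket proteins join the MuvB core in the DREAM complex, which also holds down genes of mitosis through a promoter element called the CHR. Palbociclib occupies the ATP site of both kinases and stops cells in G1 where the retinoblastoma protein is present. In melanoma the pathway is often overactive, through loss of its inhibitor CDKN2A or through MAPK signals that raise cyclin D1.

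The control libraries held 30013952 and 28823307 counts on genes and the CDK4/6i libraries 27588432 and 28223909, over 20705 genes. Replicate libraries varied with a biological coefficient of 0.0941 in the control and 0.0944 under CDK4/6i, although both pairs differed by more than counting noise (chi-square per degree of freedom of 19.2 and 15.9). CDK4/6i replicate 1 stood apart in 2 technical measures. Its genes rich in GC were higher relative to genes poor in GC, by 0.417 on the log2 scale against 0.097 in replicate 2 and 0.033 and 0.017 in the controls. Its mitochondrially encoded genes held 1.71% of counts, against 1.34% in replicate 2 and 1.10% and 0.999% in the controls. After 6 days of CDK4/6i the share was 1.49% and 1.46%. Beside these differences stand the fits without this library and a GC correction over all CHL1 libraries. With the correction 2163 of 12870 genes with a GC value were called, against 895 of the same genes without it. The PRMT5i libraries, which the fit and the correction also held, stood at -2.54 and -2.03 in the same GC measure. Which libraries account for the change in number was not tested. The part of the mitochondrial share was not tested.

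CHL1 carried some of the marks of its lineage. MITF, the master regulator of melanocytes, stood at 61.2 and 66.5 CPM (counts scaled to the size of the library) in the control and 59.0 and 70.5 CPM under CDK4/6i. SOX10 and MLANA were not analysed here, and TYR, the first enzyme of melanin synthesis, was at most 0.049 CPM in the mean of either group, so of the melanocyte markers mainly MITF, DCT and S100B were present. Markers of other cell types were low. The 5 measured leukocyte markers summed to 8.23 and 7.81 CPM in the control and 12.1 and 9.80 CPM under CDK4/6i, most of it PTPRC, with CD14 under 1 CPM. The 5 endothelial markers summed to 3.86 and 4.33 CPM against 7.58 and 8.23 CPM, most of it KDR, which passed the test (log2 fold change 1.04, adjusted p = 0.0416). The 6 epithelial markers summed to 3.67 and 3.78 CPM against 5.65 and 4.85 CPM, with KRT5 at 0 in the mean of both groups. The 7 fibroblast markers summed to 21.7 and 18.7 CPM against 30.1 and 30.3 CPM, most of it LUM, with PDGFRA at 0 in the mean of both groups. In bulk RNA, fewer cells of a type and less RNA per cell cannot be told apart.

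At 72 hours, genes for DNA replication, mitosis and histones fell, while cyclin D1, several phosphatases of the MAPK pathway and a set of lysosomal hydrolases rose. With edgeR's quasi-likelihood test and Benjamini-Hochberg adjustment over all 20705 genes, 1032 genes were differentially expressed (DEGs) at an adjusted p below 0.05, which is 4.98% of the genes tested. Of these, 469 rose (2.27% of the genes tested) and 563 fell (2.72%), and the balance turned after GC correction, with 1135 higher and 1028 lower. The median log2 fold change was 1.12 among the DEGs that rose and -0.91 among those that fell, and 298 rises and 223 falls were at least 1 on the log2 scale. In all 1032 DEGs both CDK4/6i libraries lay beyond both controls, and 60 DEGs had a mean below 1 CPM.

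The fit held all 8 CHL1 libraries, and the number of DEGs depended on it. Without the PRMT5i libraries there were 2098 DEGs, and with the 4 compared libraries alone 4202. Leaving out 1 library lowered the number to 114 (37 higher and 77 lower) without control replicate 1, 103 (33 and 70) without control replicate 2, 136 (76 and 60) without CDK4/6i replicate 1 and 127 (74 and 53) without CDK4/6i replicate 2, in fits where the lone library was assumed to vary like the other groups. The call was kept in all 4 fits by 60 DEGs, of which 22 rose and 38 fell.

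**Figure D1:**
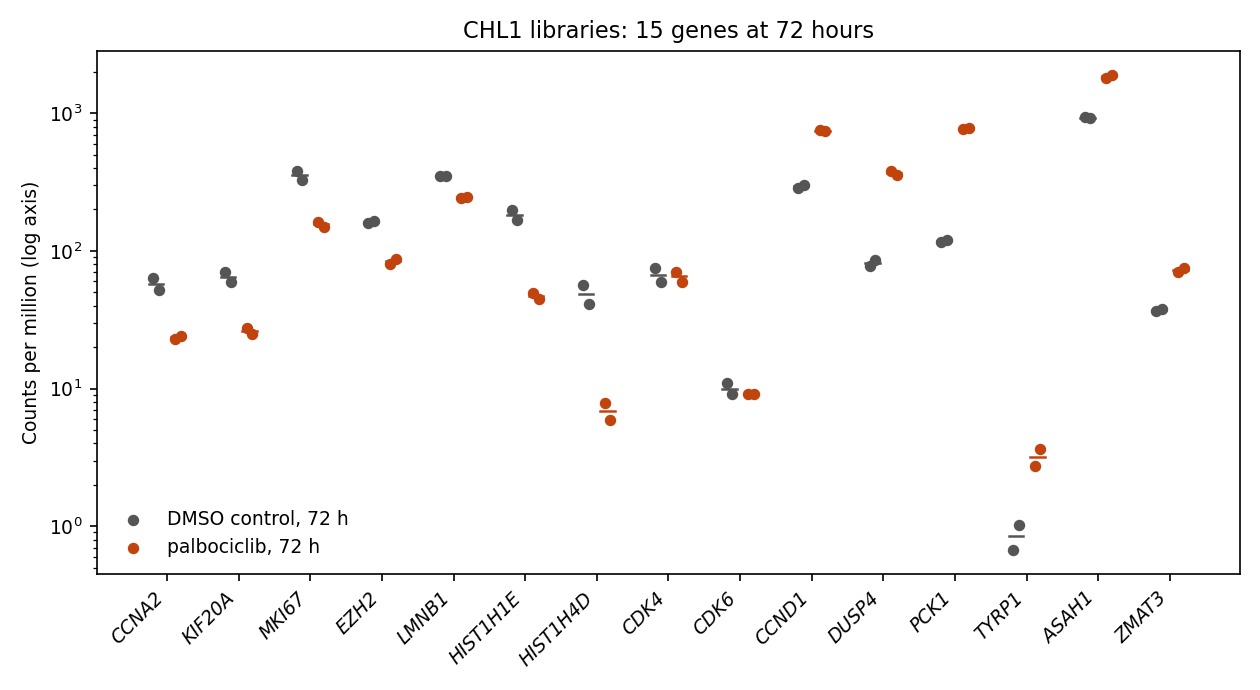
CPM on a log axis for 15 genes in the 4 CHL1 libraries at 72 hours, with each point a library and each bar the mean of 2 libraries. The libraries of the groups are apart for CCNA2, KIF20A and HIST1H4D, which fell, and for CCND1, DUSP4 and PCK1, which rose, and overlap for CDK4 and CDK6.

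The targets of the drug themselves did not pass the test. CDK4 stood at 75 and 59.4 CPM in the control and at 70.6 and 59.7 CPM under CDK4/6i, and CDK6 at 10.9 and 9.06 CPM against 9.07 and 9.13 CPM. The groups overlapped for both kinases. CCND1, which encodes the D-type cyclin that activates them, stood at 287 and 304 CPM in the control and at 754 and 738 CPM under CDK4/6i (CCND1 spans chr11:69455924-69469242 in GRCh37). It rose by a log2 fold change of 1.34 (SE 0.15, adjusted p = 0.00141) and is among the 60 DEGs that kept the call without any of the 4 libraries. CCND3 was at 61.4 and 58.8 CPM against 52.4 and 52.7 CPM (log2 fold change -0.19, adjusted p = 0.588), and CCND2 had at most 2 counts in any of the 4 libraries.

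Of the inhibitors of these kinases, CDKN2C (p18) fell from 27.2 and 21.9 CPM to 15.8 and 13.6 CPM (log2 fold change -0.74, adjusted p = 0.043). CDKN1A (p21), a p53 target, was at 18.3 and 17.1 CPM against 23.3 and 21.0 CPM (adjusted p = 0.568), and CDKN1B (p27) at 70.6 and 63.7 CPM against 87.6 and 85.6 CPM (adjusted p = 0.253). CDKN2A and CDKN2B were not analysed here. Of the pocket proteins, 1 of 3 passed the test. RBL1, the gene of p107 and itself an E2F target, fell from 115 and 111 CPM to 61.8 and 66.2 CPM (log2 fold change -0.82, adjusted p = 0.023). RB1 was at 116 and 96.9 CPM against 109 and 118 CPM, and RBL2, the gene of p130, at 48.7 and 55.6 CPM against 58.3 and 71.8 CPM, neither past the threshold. The call of CDKN2C or RBL1 was lost without any 1 of the 4 libraries.

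Across 9 lists of cell cycle genes with 194 members in the table, 70 fell and 0 rose, and the median log2 fold change was -0.58, against 0.00 over all 20705 genes. In 176 of the 194 both CDK4/6i libraries lay below both controls, as they did in 5820 of all genes. At an unadjusted p below 0.05, 4161 of all genes passed. The number of members called was 1, 4, 1 and 0 without control replicate 1, control replicate 2, CDK4/6i replicate 1 and CDK4/6i replicate 2, it was 94 with DESeq2 and 47 with limma voom, and 106 fell without the PRMT5i libraries in the fit.

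Among the E2F factors and their partners, 5 of 17 fell. MYBL2, which encodes the B-Myb factor that turns DREAM into an activator of mitotic genes, fell from 209 and 175 CPM to 87.8 and 83.7 CPM (log2 fold change -1.16, SE 0.20, adjusted p = 0.0101). FOXM1, its companion at late cell cycle promoters, fell from 48.5 and 40.7 CPM to 23.6 and 21.5 CPM (adjusted p = 0.00774), and E2F7, a repressive E2F, from 67.4 and 60.9 CPM to 37.4 and 39.4 CPM (adjusted p = 0.041). The activator E2F1 was lower in both treated libraries, at 61.4 and 53.6 CPM against 76.9 and 71.7 CPM, but did not pass (adjusted p = 0.33), nor did E2F2 (adjusted p = 0.0622) or E2F3 (adjusted p = 0.457). Of the cyclins that act after D-type cyclins, CCNA2 fell from 63.7 and 52.0 CPM to 22.9 and 24.3 CPM (log2 fold change -1.29, SE 0.19, adjusted p = 0.00433) and CCNB1 from 124 and 112 CPM to 62.4 CPM in both treated libraries (adjusted p = 0.029). CCNE1 was at 16.1 and 15.8 CPM against 18.8 CPM in both treated libraries (adjusted p = 0.582), and CCNE2 at 32.6 and 28.1 CPM against 18.4 and 21.4 CPM (adjusted p = 0.122). CDC25A, the phosphatase that activates CDK2, fell from 61.9 and 53.5 CPM to 30.7 and 31.2 CPM (adjusted p = 0.0191).

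The machinery of DNA replication moved in part. Of 25 genes of origin licensing and firing, 8 fell, with a median log2 fold change of -0.36 over the list. The MCM helicase that licensing loads was among the members that mostly stayed below the threshold, since MCM2 was at 120 and 100 CPM against 94.7 and 86.3 CPM (adjusted p = 0.455) and MCM5 at 90.7 and 76.4 CPM against 66.9 and 67.0 CPM (adjusted p = 0.458). The partners that turn the loaded helicase into a moving one did pass. CDC45 fell from 51.2 and 49.9 CPM to 30.1 and 29.3 CPM (adjusted p = 0.0186), GINS2 from 29.1 and 25.1 CPM to 14.2 and 12.9 CPM (adjusted p = 0.0111) and MCM10 from 48.4 and 44.9 CPM to 23.3 and 25.2 CPM (adjusted p = 0.0265). GMNN, the inhibitor of licensing, fell as well (log2 fold change -0.99, adjusted p = 0.0135).

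At the replication fork, 12 of 26 genes fell. PRIM1, the catalytic subunit of the primase that starts each DNA strand, had the largest fall of the cell cycle lists, from 29.2 and 27.0 CPM to 9.93 and 11.5 CPM (log2 fold change -1.39, SE 0.21, adjusted p = 0.00514). PCNA, the sliding clamp, fell from 163 and 140 CPM to 72.5 and 77.9 CPM (log2 fold change -1.01, adjusted p = 0.0359). CHAF1B, a subunit of the chaperone that places histones behind the fork, was at 116 and 113 CPM in the control and at 132 and 137 CPM under CDK4/6i, so it did not share the direction of its list (log2 fold change 0.23, adjusted p = 0.643). Of 9 genes of nucleotide synthesis for S phase, TYMS, the thymidylate synthase, fell from 18.9 and 17.6 CPM to 7.72 and 8.20 CPM (adjusted p = 0.0073) and RRM1 from 144 and 124 CPM to 77.4 and 76.6 CPM (adjusted p = 0.043), while RRM2 (log2 fold change -0.77, adjusted p = 0.0888) and TK1 (log2 fold change -0.58, adjusted p = 0.0964) did not pass. Of 24 genes of homologous recombination and the Fanconi anemia pathway 8 fell, FANCA with a log2 fold change of -0.86 (adjusted p = 0.0182), whereas BRCA1 was at -0.49 (adjusted p = 0.105).

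Of the cell cycle lists, that of mitotic kinases, spindle proteins and kinesins held the largest number of falls, 18 of 35, with a median log2 fold change of -0.67 and all 35 members below 0. KIF20A, a kinesin of the central spindle, fell from 70.2 and 59.3 CPM to 27.4 and 25 CPM (log2 fold change -1.31, SE 0.17, adjusted p = 0.00246). PLK1, the mitotic kinase, fell from 98.2 and 81.5 CPM to 45.5 and 40.1 CPM (adjusted p = 0.00756), and AURKB from 46.8 and 39.6 CPM to 24.8 and 23.7 CPM (adjusted p = 0.0261). Outside this list, MKI67, the source of the proliferation marker Ki-67, fell from 380 and 327 CPM to 163 and 149 CPM (log2 fold change -1.18, SE 0.17, adjusted p = 0.00413). Abundant members of the mitotic list stayed short of the threshold, such as ECT2 at 326 and 291 CPM against 233 and 267 CPM (adjusted p = 0.5).

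Of 29 genes of the centromere and kinetochore 8 fell, among them the outer kinetochore subunit SPC24 (log2 fold change -1.12, adjusted p = 0.0073) and HJURP, the chaperone of the centromeric histone (log2 fold change -0.96, adjusted p = 0.00776). Of 16 genes of condensins, cohesin loading and topoisomerase 6 fell, NCAPH, a condensin I subunit, from 91.6 and 79.4 CPM to 48.9 and 44.8 CPM (adjusted p = 0.0117), while TOP2A was at 457 and 419 CPM against 244 and 267 CPM (adjusted p = 0.0606). Of 20 genes that maintain DNA methylation and chromatin 5 fell, with a median of -0.54. EZH2, the methyltransferase of histone H3 lysine 27, fell from 160 and 166 CPM to 80.4 and 87.1 CPM (log2 fold change -0.96, SE 0.15, adjusted p = 0.00501), HMGB2 from 109 and 82.2 CPM to 44 and 40.1 CPM (adjusted p = 0.00701) and UHRF1, which guides maintenance methylation, from 138 and 115 CPM to 70.5 and 69.4 CPM (adjusted p = 0.0259). DNMT1 was at 301 and 280 CPM against 191 and 180 CPM (adjusted p = 0.0553). Without 1 of the 4 libraries EZH2 kept its call in none of the fits, PRIM1 and MKI67 only without control replicate 2, and KIF20A in all but the fit without CDK4/6i replicate 2.

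**Figure D2:**
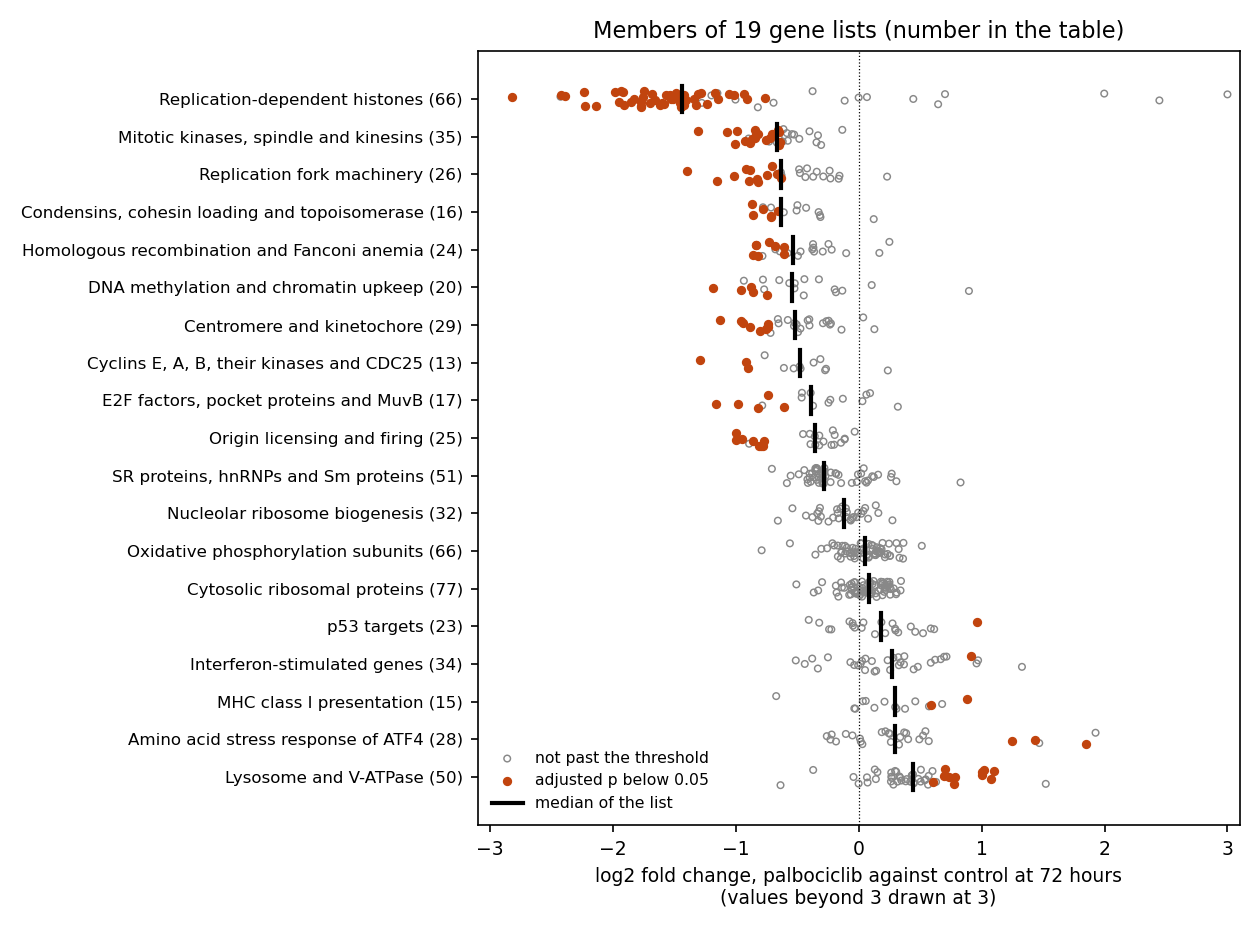
Log2 fold change of each member of 19 gene lists in CHL1 at 72 hours, with filled points for members past an adjusted p of 0.05 and a bar at the median of each list. The lists of histones, mitosis and replication lie below 0, the lysosome list lies above it, and the ribosomal proteins and subunits of oxidative phosphorylation gather at 0.

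Of all the lists, that of replication-dependent histones had the lowest median. Of 66 such genes measured, 49 fell and 0 rose, with a median log2 fold change of -1.44. By class, 4 of 6 linker histones H1, 12 of 14 H2A, 15 of 21 H2B, 10 of 13 H3 and 8 of 12 H4 genes fell, with medians of -1.69, -1.46, -1.42, -1.52 and -1.22. HIST1H4D (chr6:26188938-26189340 in GRCh37) fell from 56.4 and 41.3 CPM to 7.90 and 5.94 CPM (log2 fold change -2.82, SE 0.26, adjusted p = 0.000777). HIST1H1E, a linker histone, fell from 199 and 167 CPM to 49.5 and 45.1 CPM (log2 fold change -1.95, adjusted p = 0.00141). HIST1H2BK, at 231 and 186 CPM against 156 and 166 CPM, and HIST1H2AC, at 87.5 and 69.6 CPM against 68.5 and 76.7 CPM, did not pass the test.

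The number of histone genes that fell was 21 without control replicate 1, 35 without control replicate 2, 31 without CDK4/6i replicate 1 and 19 without CDK4/6i replicate 2. Messages of these genes normally end in a stem-loop in place of a poly-A tail, so that poly-A libraries count them only as far as they are captured. The genes are also near copies of each other, and how reads that match several copies were counted bears on each single gene.

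RefSeq promoters (GRCh38.p14, 250 bases before to 50 after each gene's start) were searched on both strands for the E2F motifs TTTGGCGC, TTTCCCGC, TTTGCCGC and TTTCGCGC and for the CHR, TTTGAA. Of all 27305 promoters, 3.33% held one of the E2F motifs and 15.4% the CHR. Among the lists that fell, 50% of 22 promoters of origin licensing and firing and 34.8% of 23 of the replication fork held an E2F motif, and 4.55% and 0% the CHR. Among 30 promoters of mitotic genes the order was the other way, with the CHR in 73.3% and an E2F motif in 6.67%. For the 26 CHR matches of the mitotic list the median distance was 21.5 bases before the start. Of 436 promoters of DEGs that fell, 11.5% held an E2F motif and 20% the CHR, against 1.34% and 10.4% of 299 promoters of DEGs that rose and 4.86% and 10.7% of the 12367 promoters of genes in the count table. Of the 316 promoters of DEGs that fell outside the lists, 5.7% held an E2F motif and 13.9% the CHR. A match is a description of the letters and not a binding site. Only exact matches to these strings were sought, so a missing match does not show that a promoter lacks such an element.

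To show such matches, the 150 bases before the start of genes that fell are given in the direction of transcription, with the match in capitals. CDC25A (chr3:48188418-48188567, minus strand) and GINS2 (chr16:85688955-85689104, minus strand) hold an E2F motif, in GINS2 as its reverse complement. MKI67 (chr10:128126424-128126573, minus strand) holds the letters of the CHR in 2 places, HJURP (chr2:233854536-233854685, minus strand) in 1, and HIST1H4D (H4C4 in RefSeq, chr6:26189113-26189262, minus strand) as their reverse complement. Whether any of these matches works as a CHR was not tested, and the letters may belong to another element. They were chosen because they hold a match: of 12 promoters of genes that fell looked at in this way, 6 held none of these motifs (CCNA2, KIF20A, MYBL2, NCAPH, PRIM1 and TICRR), and that of EZH2 held an E2F motif only after the start.
CDC25A: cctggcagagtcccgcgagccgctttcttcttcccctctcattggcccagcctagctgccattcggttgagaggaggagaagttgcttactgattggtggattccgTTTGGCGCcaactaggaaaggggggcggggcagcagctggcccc
GINS2: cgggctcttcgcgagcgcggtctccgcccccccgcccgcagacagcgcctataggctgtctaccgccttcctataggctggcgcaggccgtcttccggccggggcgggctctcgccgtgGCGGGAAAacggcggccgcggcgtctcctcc
MKI67: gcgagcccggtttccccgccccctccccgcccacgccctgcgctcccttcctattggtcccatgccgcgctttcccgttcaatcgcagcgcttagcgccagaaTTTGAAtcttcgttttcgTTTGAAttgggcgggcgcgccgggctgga
HJURP: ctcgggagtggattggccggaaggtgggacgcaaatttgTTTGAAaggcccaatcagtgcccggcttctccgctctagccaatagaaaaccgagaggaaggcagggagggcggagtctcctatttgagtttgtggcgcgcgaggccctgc
HIST1H4D: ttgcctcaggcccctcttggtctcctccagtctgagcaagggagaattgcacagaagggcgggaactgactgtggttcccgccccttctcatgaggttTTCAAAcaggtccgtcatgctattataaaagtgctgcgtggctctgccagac

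The rises were led by genes of several kinds rather than by one of the lists. TNFRSF9, the costimulatory receptor 4-1BB, rose from 0.223 and 0.164 CPM to 2.38 and 2.52 CPM (log2 fold change 3.63, SE 0.38, adjusted p = 0.00102). CGA, the common alpha subunit of the glycoprotein hormones, rose from 8.84 and 7.42 CPM to 77.4 and 76.2 CPM (log2 fold change 3.24, SE 0.33, adjusted p = 0.00102), and FCRLA from 2.20 and 1.44 CPM to 16.9 and 16.5 CPM (log2 fold change 3.19, SE 0.23, adjusted p = 0.000201). PCK1 (chr20:56136136-56143177 in GRCh37), the cytosolic enzyme that commits oxaloacetate to gluconeogenesis, was the most abundant of the 12 largest rises among named genes that averaged 1 CPM or more. It went from 116 and 120 CPM to 765 and 778 CPM (log2 fold change 2.71, SE 0.22, adjusted p = 0.000538). These 4 genes kept the call without any 1 of the 4 libraries. The other large rises, between 2.43 and 2.58 on the log2 scale, were those of BRINP2, GALNT5, ADAMTS7P3, MEGF6, SLC6A18, APBA2, SCN2A and SYNPO2, of which only APBA2 reached 10 CPM in any library. ADAMTS7P3 is a pseudogene, and its reads may belong in part to near copies.

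Genes of MAPK feedback rose in part, 5 of 27 with 0 falls, while the median over the list was 0.06. DUSP4, a phosphatase that takes the phosphate off ERK in the nucleus, rose from 77.7 and 86.3 CPM to 381 and 356 CPM (4.5-fold, adjusted p = 0.00149). DUSP5 rose from 19.3 and 17.0 CPM to 44.7 and 37.4 CPM (2.26-fold, adjusted p = 0.00569) and DUSP6, its cytoplasmic counterpart, from 62.7 and 49.1 CPM to 94.1 and 81.9 CPM (log2 fold change 0.65, adjusted p = 0.043). The other called members were CCND1 and IL8. IL8 had 2 and 3 counts in the control and 17 and 26 under CDK4/6i, at least 7.46-fold higher against a floor of 3 counts per library (adjusted p = 0.0173). EPHA2 (adjusted p = 0.199) and ETV1 (adjusted p = 0.919), which the same pathway drives, did not pass. The lowest member was EGR1, an immediate early transcription factor chosen after its values were seen, at 7.18 and 2.79 CPM against 1.48 and 1.66 CPM (log2 fold change -1.66, adjusted p = 0.0722). DESeq2 called 4 members higher and 1 lower, and the fit of the 4 compared libraries alone 6 higher and 4 lower. The count of called members was 2 without control replicate 1, 2 without control replicate 2, 2 without CDK4/6i replicate 1 and 3 without CDK4/6i replicate 2.

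Lysosomal genes rose in part. Of 50 genes measured, 11 rose and 0 fell, 46 were above 0, and the median log2 fold change was 0.44. In 42 of the 50 both CDK4/6i libraries lay above both controls, as they did in 6218 of all 20705 genes. ASAH1, the acid ceramidase, rose from 935 and 922 CPM to 1806 and 1910 CPM (log2 fold change 1.00, SE 0.15, adjusted p = 0.0044). GAA, which breaks down lysosomal glycogen, rose from 61.7 and 63.7 CPM to 132 and 122 CPM (adjusted p = 0.019), and SMPD1, the acid sphingomyelinase, from 19.4 and 17.9 CPM to 41.5 and 38.3 CPM (log2 fold change 1.10, adjusted p = 0.0198). The cathepsins CTSF and CTSO, the lipase LIPA, the cholesterol carrier NPC2, the saposin precursor PSAP, the channel MCOLN1 and the proton pump parts ATP6V1G1 and ATP6AP2 completed the 11. LAMP2, a main membrane protein of the lysosome, was at 412 and 356 CPM against 562 and 559 CPM (adjusted p = 0.0593). The 11 calls were lost in each of the 4 fits that left out a library, while 17 genes of the list were called with DESeq2, 8 with limma voom, 6 with a replicate block and 20 without the PRMT5i libraries in the fit. Of 31 autophagy genes, OPTN, a receptor for selective autophagy, and GABARAPL1 rose and ATG10 fell. Over all genes 2.27% rose and 2.72% fell.

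**Figure D3:**
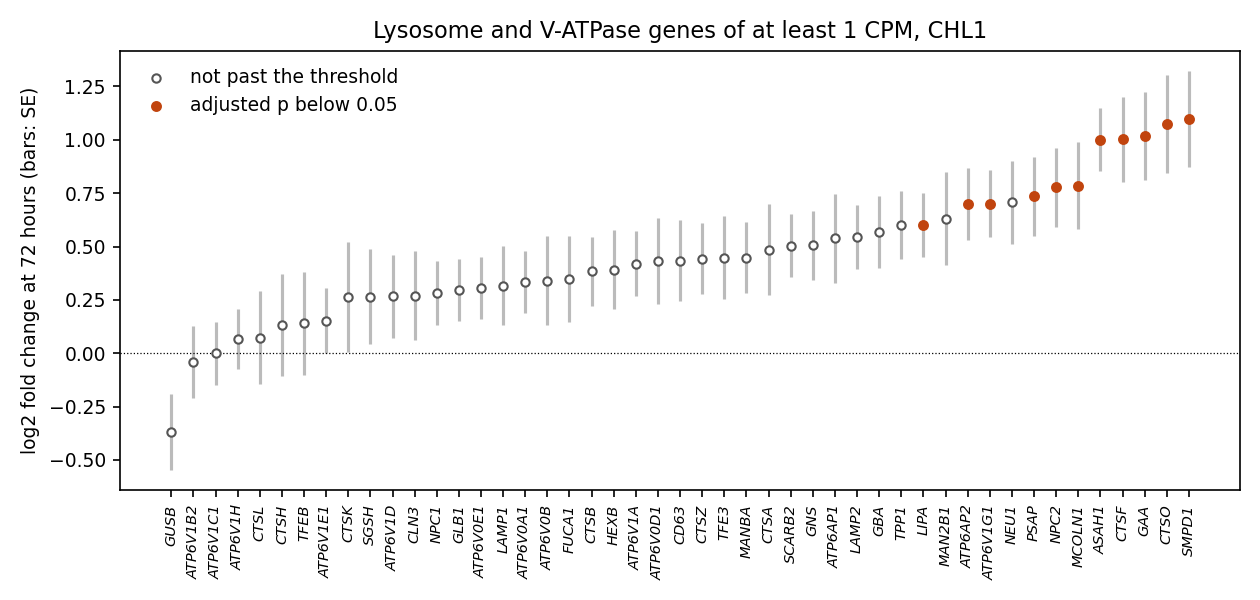
Log2 fold change with its standard error for the lysosome and V-ATPase genes that averaged 1 CPM or more in the 4 CHL1 libraries, ordered by size. Nearly the whole row lies above 0, with the 11 genes past an adjusted p of 0.05 filled, from LIPA at 0.60 to SMPD1 at 1.10.

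In the immune lists 1 of 34 interferon-stimulated, 2 of 15 MHC class I and 0 of 12 MHC class II genes passed the test. Over all genes 4.98% passed, so counts this small say little about these lists. Of 34 interferon-stimulated genes STAT2, a transducer of the interferon signal, passed the test, from 37.8 and 40.8 CPM to 75 and 73.3 CPM (log2 fold change 0.91, adjusted p = 0.016). Among the genes of MHC class I presentation, HLA-B rose from 11.9 and 9.33 CPM to 21.1 and 18 CPM (log2 fold change 0.88, adjusted p = 0.0444), with B2M at 177 and 155 CPM against 210 and 202 CPM (adjusted p = 0.452). The class I heavy chain genes are near copies of each other and vary between people, which bears on how reads were aligned to HLA-B. None of 12 genes of MHC class II presentation passed with edgeR, DESeq2 or at an unadjusted p below 0.05 (0 of 12 each), and HLA-DRA had 0 counts in all 4 libraries. The 12 genes summed to 10.3 and 10.1 CPM in the control and 9.76 and 9.06 CPM under CDK4/6i. Only 3 of them passed a filter of 1 CPM in 2 CHL1 libraries, so for most members a missing call says little. Of 23 p53 targets ZMAT3, an RNA-binding target of p53, rose, from 36.3 and 38.1 CPM to 69.8 and 75.6 CPM (log2 fold change 0.97, adjusted p = 0.00567), and MDM2 was at 120 and 107 CPM against 109 and 106 CPM (adjusted p = 0.883). The calls of STAT2 and HLA-B were lost without any 1 of the 4 libraries, and that of ZMAT3 was kept only without CDK4/6i replicate 1.

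The response to amino acid stress held 3 rises among 28 genes, the transcription factor ATF3 (log2 fold change 1.43, adjusted p = 0.00877), the glutathione-degrading enzyme CHAC1 (1.85, adjusted p = 0.0202) and the mTORC1 inhibitor DDIT4 (1.25, adjusted p = 0.0419). ATF4 itself was at 367 and 329 CPM against 361 and 350 CPM (adjusted p = 0.982). Over all genes 2.27% rose, so 3 calls in a list of 28 say little about the list as a whole. Of 23 glycolysis genes SLC2A1, the glucose transporter GLUT1, rose from 117 and 128 CPM to 338 and 349 CPM (log2 fold change 1.49, SE 0.23, adjusted p = 0.00515), and the enzymes of the pathway did not pass, ENO1 standing at 1328 and 1146 CPM against 1007 and 936 CPM (adjusted p = 0.32). AKR1B10, an aldo-keto reductase among the NRF2 targets, rose from 1.69 and 1.64 CPM to 5.55 and 5.11 CPM (log2 fold change 1.67, adjusted p = 0.00329).

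The lineage and matrix genes moved in both directions. DCT, a melanin synthesis enzyme, fell from 88.8 and 65.2 CPM to 33.7 and 33.5 CPM (log2 fold change -1.20, adjusted p = 0.0101), whereas its relative TYRP1 rose from 0.67 and 1.02 CPM to 2.72 and 3.62 CPM (log2 fold change 1.91, adjusted p = 0.0129). Of 38 collagens and matrix glycoproteins 3 rose and 2 fell, TGFBI from 107 and 123 CPM up to 277 and 302 CPM (log2 fold change 1.33, SE 0.17, adjusted p = 0.00215) and VCAN, the versican proteoglycan, from 10.4 and 11.4 CPM down to 3.45 and 3.35 CPM (log2 fold change -1.67, adjusted p = 0.0161). Among growth factors and their receptors 2 of 36 rose and 3 fell. Over all genes 2.27% rose and 2.72% fell, so such small counts in the growth factor and matrix lists say little about either list as a whole. PDGFB rose from 13.5 and 11.9 CPM to 53.2 and 40.5 CPM (log2 fold change 1.88, SE 0.23, adjusted p = 0.00189). The receptors ERBB4 (log2 fold change -1.07, adjusted p = 0.0359) and IGF1R (-0.64, adjusted p = 0.0486) and the ligand FGF2 (-1.62, adjusted p = 0.00357) fell. TGFBI and PDGFB kept the call without any 1 of the 4 libraries.

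The main fit with edgeR called 4.98% of all genes, so 0 calls in a list of 13 or 16 genes says little. Several groups of housekeeping and RNA processing genes had no DEG in this fit. This held for 51 SR, hnRNP and Sm proteins (median log2 fold change -0.28), 32 genes of nucleolar ribosome biogenesis (-0.12), 77 cytosolic ribosomal proteins (0.09), 66 nuclear subunits of oxidative phosphorylation (0.05), 16 BCL2 family genes (0.15) and 13 arginine methyltransferases and PRMT5 partners (-0.07). Of the 51 SR, hnRNP and Sm genes, 39 had a log2 fold change below 0 and 12 above. In 32 of the 51 both CDK4/6i libraries lay below both controls and in 3 above both, as they did in 5820 and 6218 of all 20705 genes. PRMT5 was at 8.74 and 7.32 CPM against 7.21 and 6.91 CPM (adjusted p = 0.666) and its partner WDR77 at 38.1 and 38.0 CPM against 35.6 and 31.9 CPM (adjusted p = 0.626). At an unadjusted p below 0.05 the numbers were 11, 2, 0, 2, 2 and 1 in the same order, and with DESeq2 1, 1, 0, 1, 0 and 0 were called. With the 4 compared libraries alone in the fit, 16 of the 51 SR, hnRNP and Sm genes and 7 of the 32 nucleolar genes were called lower. That fit called 2171 of all 20705 genes lower. Of 13 mitochondrially encoded genes MT-CO1, a subunit of cytochrome oxidase, rose from 3229 and 2972 CPM to 6712 and 5540 CPM (adjusted p = 0.0167), and MT-ND5 was at 1550 and 1394 CPM against 1540 and 1210 CPM (adjusted p = 0.877).

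The change at 72 hours went with the genomic span of a gene, from its first to its last annotated base in GENCODE release 44 lifted to GRCh37. Among 12829 genes that had a span and averaged 1 CPM or more, the DEGs that fell had a median span of 119 kb (n = 506) and those that rose 25.2 kb (n = 361), against 38.3 kb over all. Without the members of the cell cycle, chromatin and histone lists, the median span of the falls was 178 kb (n = 387), and 122 of them exceeded 300 kb.

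In protein-coding genes outside those lists, the median log2 fold change went down in each step from short to long genes. It was 0.15 in 1787 genes under 10 kb, 0.09 in 3135 genes of 10 to 30 kb, -0.02 in 4059 genes of 30 to 100 kb, -0.18 in 2182 genes of 100 to 300 kb and -0.40 in 662 genes over 300 kb. Of the genes over 300 kb, 18% were called lower and 1.51% higher, while of those under 10 kb 0.672% were called lower and 3.86% higher. Set against the mean of the controls on the log2 scale of CPM + 1, the median for genes over 300 kb was -0.44 in CDK4/6i replicate 1 and -0.32 in replicate 2. In the fits that left out each of the 4 libraries in turn it lay between -0.49 and -0.26. The share of GC differs with span, and in the genes with a GC value this median was -0.38 before and -0.33 after the GC correction. The values at 6 days of CDK4/6i against the same control (-0.39) and at 72 hours in A375 (-0.20) stand beside it.

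NRG3 (chr10:83634950-84746935 in GRCh37), which encodes a neuregulin that signals through ERBB4, spans 1110 kb. Its fall was the largest outside the histones among DEGs that averaged 1 CPM or more and have no clone name. It went from 15.7 and 18 CPM to 2.38 and 3.25 CPM (log2 fold change -2.58, SE 0.30, adjusted p = 0.00146). GPM6A, a membrane protein of neurons with a span of 370 kb, fell from 6.57 and 8.60 CPM to 2.00 and 1.76 CPM (log2 fold change -2.01, adjusted p = 0.00506). PKNOX2, a homeobox gene of 269 kb, fell from 40.4 and 53.2 CPM to 11.8 and 12.1 CPM (log2 fold change -1.97, adjusted p = 0.00278), and PRR16, of 223 kb, from 2.04 and 2.40 CPM to 0.414 and 0.531 CPM (log2 fold change -2.22, adjusted p = 0.0103). NRG3 and PKNOX2 kept the call without any 1 of the 4 libraries. Span did not set the direction of each gene, and FGF14, chosen here after its values were seen, spans 692 kb and rose from 0.957 and 1.58 CPM to 5.62 and 7.01 CPM (log2 fold change 2.32, adjusted p = 0.00218).

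**Figure D4:**
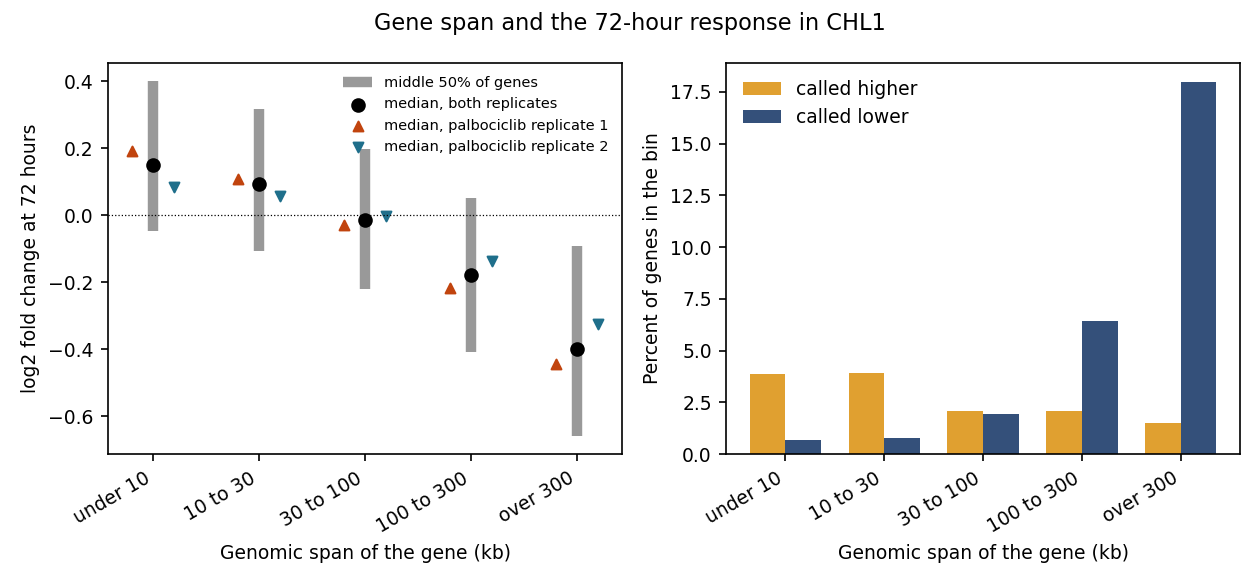
Protein-coding genes outside the cell cycle, chromatin and histone lists, grouped by genomic span in kb. On the left, the median log2 fold change of each group with its middle 50% of genes and the medians of each CDK4/6i replicate, which fall from 0.15 under 10 kb to -0.40 over 300 kb; on the right, the percent of genes called higher or lower, which reaches 18% lower over 300 kb.

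The same treatment in A375 allowed a test of whether the responses of the lines differed. By their names, the 72-hour libraries of A375 and the CHL1 libraries were not numbered in one run of samples. The methods also name different media, RPMI for A375 and DMEM for CHL1. The line cannot be told apart from the medium or from such a set of libraries. In the fit of all 18 libraries, 15.1% of genes were called in A375 at 72 hours. The response differed between the lines in 133 genes (0.642% of those tested), 50 with the larger value in CHL1 and 83 with the smaller, and 2073 genes passed at an unadjusted p below 0.05. Only the 8 compared libraries in the fit gave 1797 genes, and leaving out 1 of the 8 gave 30 to 46.

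Cell cycle genes were lower in both lines. The median log2 fold change of the 194 cell cycle genes was -0.58 in CHL1 and -1.11 in A375, with 159 of them called lower in A375, and the difference between lines passed the test in 6 of the 194, each with the higher log2 fold change in CHL1. CHAF1B was among them, since it went from 22.9 and 24.8 CPM to 7.71 and 7.51 CPM in A375 and was not called in CHL1 (difference 1.88, SE 0.33, adjusted p = 0.0112). BARD1, the partner of BRCA1, fell in both lines and by more in A375 (difference 1.26, adjusted p = 0.0229), as did EZH2 (difference 0.92, adjusted p = 0.0476). LMNB1, the nuclear lamin whose loss accompanies senescence, stood at 352 and 348 CPM against 241 and 248 CPM in CHL1 (log2 fold change -0.52, adjusted p = 0.192) and went from 229 and 278 CPM to 52.1 and 58.0 CPM in A375 (difference 1.68, SE 0.28, adjusted p = 0.00697).

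DUSP4 and DUSP5 had the larger log2 fold change in CHL1. DUSP4 was at 661 and 673 CPM in the A375 control and at 1029 and 940 CPM under CDK4/6i there, so that its level in A375 controls lay above that of treated CHL1 cells, while its log2 fold change was larger in CHL1 (difference 1.61, SE 0.32, adjusted p = 0.0223). DUSP5 differed likewise (difference 1.14, adjusted p = 0.0404), and so did PDGFB (difference 2.07, adjusted p = 0.033). VCAN went in opposite directions in the lines, from 8.06 and 5.52 CPM to 16.8 and 18.2 CPM in A375 (difference -3.04, SE 0.45, adjusted p = 0.00277). FN1, the fibronectin gene, was at 21.2 and 20.9 CPM against 19.6 and 19.8 CPM in CHL1 and rose in A375 from 305 and 318 CPM to 832 and 1020 CPM (difference -1.67, adjusted p = 0.0251). Of the 13 named genes with a difference, 9 lost it in each of the 8 fits that left out a library, and the other 4 (VCAN, APBA2, LMNB1 and CHAF1B) kept it in at least 1, VCAN in all 8.

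**Figure D5:**
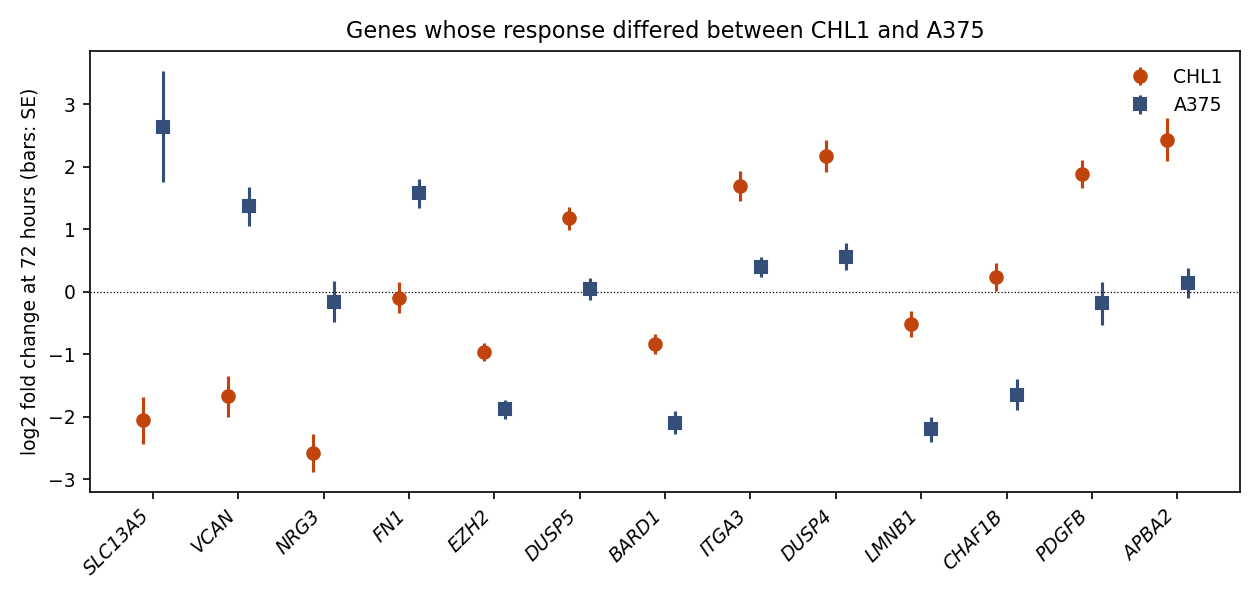
Log2 fold change at 72 hours with its standard error for the 13 named genes whose response differed between CHL1 (circles, fit of 8 libraries) and A375 (squares, fit of 18 libraries). SLC13A5 and VCAN lie on opposite sides of 0, LMNB1 and CHAF1B lie lower in A375, and DUSP4, DUSP5, PDGFB, ITGA3 and APBA2 lie higher in CHL1.

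After 6 days of palbociclib 16.6% of genes were called in CHL1 against the same 72-hour control, so the values of the 2 times share their control and are given side by side. The series holds no 6-day control of CHL1, so longer treatment cannot be told apart from longer culture. For the cell cycle genes the median log2 fold change was -0.58 at 72 hours and -0.61 at 6 days, with 70 and 99 of 194 called lower. For the lysosome list the medians were 0.44 and 0.62, with 11 and 28 of 50 called higher. Single genes had values farther apart. AKR1B10 had a log2 fold change of 1.67 at 72 hours and 3.64 at 6 days, and EDIL3, a matrix protein that binds integrins, of 0.29 and 2.05, whereas DCT had -1.20 and -0.09 and ITGB8, an integrin subunit, -0.67 and 0.36.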

How the data were processed

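Poly-A RNA libraries (TruSeq, paired-end) of CHL1 and A375 cells were sequenced by the study. According to the submitters' processing notes and the methods, the authors aligned reads to GRCh37 with HISAT2 2.0.4, counted them per gene with HTSeq at default settings (the notes and the methods name different versions) and removed low genes with edgeR. HTSeq counts by strand by default; whether the kit marked strand is not given in the sources used here. The deposited table is named as normalised, but its values are whole numbers whose totals differ between libraries, so they were treated as raw counts. Totals of the 4 libraries ran from 27588432 to 30013952.

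Counts were scaled by TMM and fitted with edgeR 4.0.16 (R 4.3.3; quasi-likelihood) over all 8 CHL1 libraries with a mean per group; the difference between lines was fitted over all 18. P-values were adjusted by Benjamini-Hochberg over 20705 genes, and DEGs had an adjusted p below 0.05. Alternatives used DESeq2 1.42.0, limma 3.58.1, other scalings, filters, a GC correction and other library sets. Genes named were a list of key genes, the 12 largest rises and 12 largest falls among DEGs that averaged 1 CPM or more, and up to 5 called and 2 abundant uncalled members of each list. Lists, members and tests were chosen with earlier results of these data known. Some list members had no entry and were not analysed here, and some results are not reported here. Floors of 3 counts cover counting error only.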

Additional observations from a re-analysis of the deposited data

Results flagged for a closer look

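The response to CDK4/6i at 72 hours differed between CHL1 and A375 in 133 genes, by edgeR's test of the difference itself (adjusted p below 0.05). Among the genes named in the report, the difference of log2 fold changes (CHL1 minus A375) was positive for APBA2 (2.2922), PDGFB (2.0664), CHAF1B (1.8799), LMNB1 (1.6848), DUSP4 (1.6092), ITGA3 (1.3005), BARD1 (1.2582), DUSP5 (1.1362) and EZH2 (0.9234). It was negative for SLC13A5 (-4.6974), VCAN (-3.0358), NRG3 (-2.4188) and FN1 (-1.6696). SLC13A5, a citrate transporter, was near the floor in the A375 controls, at 0.145 and 0.244 CPM.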

How the results depend on the processing

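All 1032 DEGs kept their direction in every alternative that gave them a value, which the separation of their libraries fixes where a library is left out. No call of a named gene turned to the opposite direction, while genes that were not called, such as CDK4, CDK6 and RB1, changed sign when a library was left out. The number of DEGs moved. It was 1671 with DESeq2, 2163 after GC correction (895 for the same genes uncorrected), 521 at an absolute log2 fold change of 1, 214 at an adjusted p below 0.01, 2098 without the PRMT5i group, 4202 with only the 4 compared libraries, and 103 to 136 without 1 replicate. The cause was not tested, beyond fewer libraries in the last. All 18 libraries (953), a filter of 1 CPM (1041), voom (708) and median-of-ratios scaling (997) stayed within 1.5 times. The difference between lines gave 368 genes with DESeq2, 1797 with only the 8 compared libraries and 30 to 46 without 1 replicate.

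Replicate numbers were not taken to pair the libraries, since the correlation of same-numbered deviations was 0.458 between the control and CDK4/6i at 72 hours but ran from -0.344 to 0.159 over the other 5 pairs of CHL1 groups. With a replicate block, 796 genes were called, or 7550 with only the 4 compared libraries (an alternative added after seeing the data, as was the uncorrected GC base) against 4202 there with no block, and 148 for the difference between lines. The precision of each value is limited by 2 libraries a group.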

Other observations

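Outside the gene lists, a set of genes chosen after their values were seen also rose. SLFN5, an interferon-inducible gene of the Schlafen family, went from 107 and 95.3 CPM to 309 and 326 CPM (log2 fold change 1.65, adjusted p = 0.00102). HSD3B2, a steroid dehydrogenase, went from 9.41 and 12.6 CPM to 52.7 and 55.3 CPM (log2 fold change 2.29, adjusted p = 0.000777), and it shares sequence with near copies such as HSD3BP2, so its reads are uncertain. Among falls chosen in the same way, PDE3A, a phosphodiesterase that breaks down cyclic AMP, went from 429 and 452 CPM to 167 and 179 CPM (log2 fold change -1.35).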
